A study of Mus musculus with 155 samples.

Results

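GSK343 is a small molecule that inhibits EZH2, the methyltransferase of Polycomb repressive complex 2 (PRC2). Its early effect on messenger RNA was measured in mouse embryonic stem cells (ESCs) by comparing 4 GSK343-treated RNA-seq libraries with 4 untreated ones. The libraries were chosen by their labels, as those of the WT H3.3 line at 4 and 8 h, with earlier results of these data known. They are 8 of the 32 ESC RNA-seq libraries and of the 155 samples of the series. All of the cells were KH2 mouse ESCs with a Doxycycline (Dox)-inducible WT SNAP-HA-H3.3 transgene, they were grown with LIF and 2 kinase inhibitors (2i), and all received 1 µM Dox. The untreated group received Dox for 4 or 8 h, and the treated group received Dox and GSK343 for the same 4 or 8 h, with 2 biological replicates at each time. The replicates were prepared weeks apart. The dose of GSK343 and the clone behind each library are not given in the sources used here. Neither H3K27me3 nor GSK343 activity was measured in these RNA libraries, so they hold no direct check that EZH2 was inhibited. The study used GSK343 to separate the loss of PRC2 activity from other consequences of H3.3 mutation, and the comparison asks which transcripts differ within hours of adding the inhibitor.

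PRC2 places H3K27me3 on histone H3 and keeps developmental genes, the Hox clusters among them, silent in ESCs. EZH2 and its relative EZH1 are alternative catalytic subunits, EED and SUZ12 are needed for activity, and accessory subunits such as JARID2 and MTF2 help direct the complex to CpG-rich promoters. H3K27me3 is a stable mark that is lost through histone exchange and dilution at cell division.

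The untreated libraries held between 10824555 and 16083610 counts. The treated ones held between 6724537 and 8465171, except GSK343 8 h replicate 2, which held only 1247934. A second library, untreated 8 h replicate 2, stood apart in its balance of long and short genes. Its log2 ratio of long to short transcripts was 0.80, against −0.40 to 0.20 in the other 7 libraries, and its mean Spearman correlation with them was 0.967, against 0.976 to 0.987. The labels allow either of a pair of library kits, one of which reads only 3′ ends, and do not say which was used where, so its part in this was not tested. In the comparison of the 8 libraries the 25% of genes with the shortest transcripts had a median log2 difference of 0.17 and the 25% with the longest one of −0.17. Where a gene's log2 difference over both times moved by more than 1.5 times without that library, its value without it is given as well, and some results are also given with offsets that remove the trend by gene length. ESC markers were present in every library, with 7 of 8 marker genes having a row and a summed level of 4352 to 5320 CPM (counts scaled to a common library size) untreated and 4002 to 4256 CPM treated. Among them Tfcp2l1 was at 598 to 1746 CPM untreated and 418 to 579 CPM treated. The groups overlapped for Pou5f1, Sox2, Nanog, Esrrb, Klf4 and Utf1. Summed markers of extraembryonic endoderm were at 7.64 to 11.9 CPM untreated and 9.5 to 14.1 CPM treated, of trophoblast at 38.8 to 51.0 and 36.1 to 52.9 CPM, of neural progenitors at 37.9 to 50.9 and 45.9 to 52.95 CPM, and of neurons at 236 to 436 and 338 to 484 CPM. The neuron sum was almost wholly Stmn2, at 234 to 432 CPM untreated and 333 to 482 CPM treated, while Snap25 and Dcx were at or near 0. The fibroblast sum of 1113 to 1826 CPM untreated and 1028 to 1193 CPM treated was almost wholly Fn1 and Vim, and the collagen genes, Lum and Dcn were under 1 CPM and Postn at 0 in every library. In bulk RNA, fewer cells of a type and less RNA per cell cannot be told apart.

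No gene passed the test. In edgeR's quasi-likelihood test on 12535 genes, with Dox time as a factor, 0 genes (0%) had an adjusted p under 0.05 with more than a 2-fold difference, and 0 (0%) had one at any fold. The lowest adjusted p was 0.658. DESeq2 also called 0. At an unadjusted p under 0.05 edgeR listed 863 genes (6.88% of those tested), of which 268 (2.14%) were higher with GSK343 and 595 (4.75%) lower. DESeq2 listed 236 higher and 599 lower at that level. The median log2 difference over all genes was 0.02, 95% of genes lay within 0.57 of 0, and the median standard error was 0.18. Of 200 genes given a 3-fold difference in simulated libraries of these depths, with a dispersion of 0.05, 98.5% were recovered by this comparison, 86.0% at 4 h alone and 80.0% at 8 h alone. The genes changed in the simulation lay above a CPM floor, and no simulated library stood apart as untreated 8 h replicate 2 did. The shares recovered therefore do not cover smaller differences, lower levels or such a library. Since no gene passed, each gene below is given by its values. A count at unadjusted p under 0.05 is read against the share of all genes given above. Because the lowest adjusted p values are tied, most genes named here share the adjusted p of 0.658.

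2 genes did pass when untreated 8 h replicate 2 was left out: Egr1, an immediate early transcription factor, and Cyp1a1, a target of the aryl hydrocarbon receptor. Egr1 was then higher by 1.16 and Cyp1a1 by 1.08 on the log2 scale, both with an edgeR adjusted p of 0.0221 and both over the 2-fold limit. Without the shallow treated library as well, both adjusted p values were 0.0814, and with all 8 libraries they were 0.658. When the filter on low counts was dropped, 372 genes had an adjusted p under 0.05 in edgeR, 16 higher and 356 lower with GSK343, and 65 of them were past the 2-fold limit. Of the genes named here 18 were among the 372 and 6 past that limit. Snrpn and Tfcp2l1, described below, had the lowest adjusted p of the 6, at 6.68e-17 and 5.23e-12, and were lower. Egr1 (2.79e-10), Cyp1a1 (5.71e-10), Fos (1.83e-09) and Cyp1b1 (0.000832) were higher. These values hold for that setting alone. With the filter and all 8 libraries, none of the 6 had an adjusted p below 0.658 in edgeR. The cause of this gap was not tested.

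Egr1 was at 7.76 and 7.59 CPM in the untreated libraries at 4 h and at 13.4 and 0.94 CPM at 8 h. With GSK343 it was at 17.6 and 15.2 CPM at 4 h and 31.2 and 31.9 CPM at 8 h. All 4 treated libraries lay above all 4 untreated ones, and the level in untreated 8 h replicate 2 was the lowest of the 8. The fitted log2 difference with all libraries was 1.64 (SE 0.55). Over all genes, 224 (1.79%) had every treated library above every untreated one, and 432 (3.45%) every treated library below. Fos, which pairs with Jun proteins in the AP-1 transcription factor, was at 5.79, 3.33, 8.94 and 2.003 CPM untreated, in the order 4 h replicates 1 and 2 then 8 h replicates 1 and 2. With GSK343, in the same order, it was at 10.3, 5.73, 31.9 and 25.04 CPM. Untreated 4 h replicate 1 and untreated 8 h replicate 1 lay above the lowest treated library, and the 8 h treated libraries were the highest of all, with a log2 difference of 1.70 (SE 0.48) over both times. Jun was at 6.31, 6.28, 7.73 and 4.88 CPM untreated and at 8.57, 8.42, 20.02 and 19.86 CPM with GSK343. The treated libraries were all higher, by 0.43 on the log2 scale at 4 h and 1.70 at 8 h, and the difference between these differences was 1.27 with an unadjusted p of 0.0100 and an adjusted p over 0.99 in edgeR. In that test of 8 h against 4 h, 18 genes (0.144%) had an unadjusted p under 0.05 and 0 were called.

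The immediate early genes are transcribed within minutes of growth factor or stress signals and need no new protein synthesis. Of 27 tested of 38 listed, 21 were higher and 6 lower, where 53.2% of all genes were higher, 7 had an unadjusted p under 0.05, all higher, and the median log2 difference was 0.13. Fosl2, another AP-1 member, differed by 1.03, and Dusp1, a phosphatase that ends MAP kinase signalling, by 0.30. Dusp1 was steady in the untreated libraries, at 64.1, 64.5, 64.0 and 65.1 CPM, and was at 76.0, 78.8, 82.5 and 78.6 CPM with GSK343. In the separate libraries at 24 and 72 h, 23 of the 27 were higher, where 43.5% of all genes were, 4 had an unadjusted p under 0.05, and the median was 0.15, against −0.02 for all genes. Jun differed there by 0.48, with an unadjusted p of 0.00904, and Egr1 by 0.40 (unadjusted p 0.489) in edgeR. Without untreated 8 h replicate 2, the early median was 0.11 and 5 genes had an unadjusted p under 0.05.

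**Figure D1:**
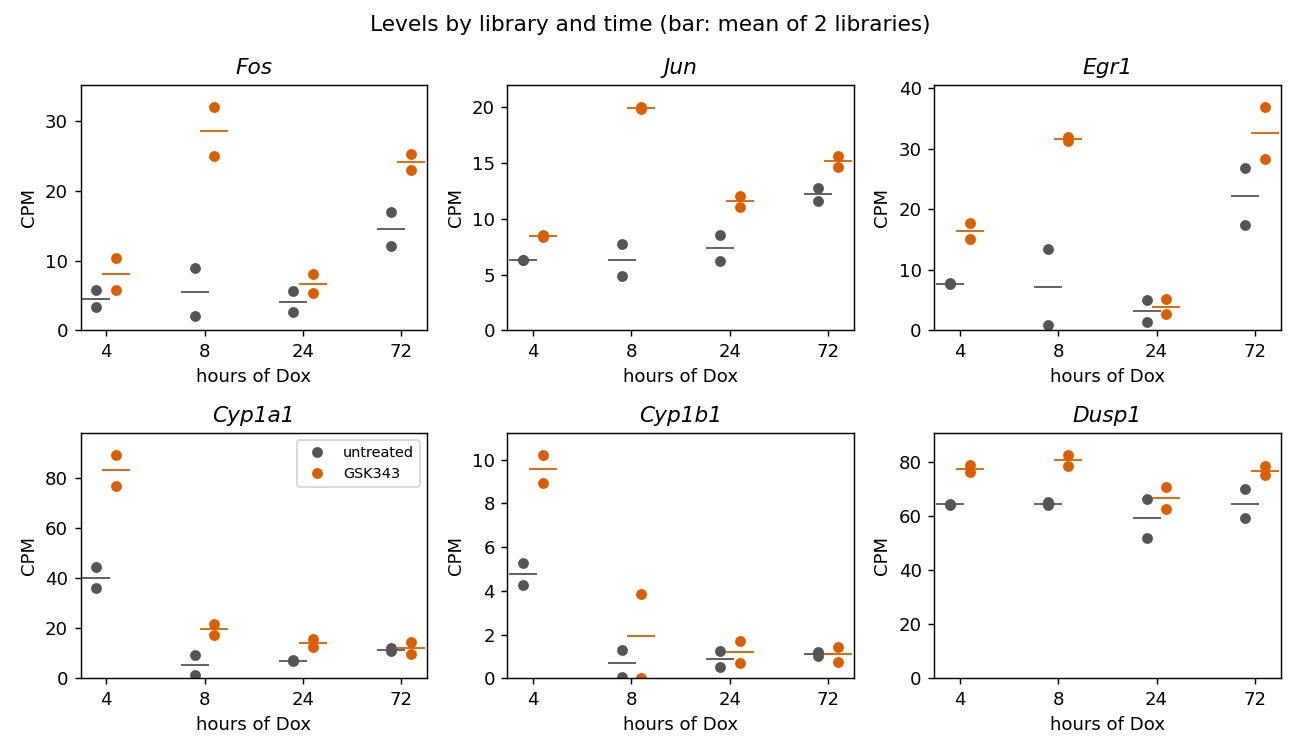
CPM of 6 genes in each untreated (grey) and GSK343-treated (orange) library at 4, 8, 24 and 72 h of Dox. Bars are means of 2 libraries. Fos, Jun and Egr1 were highest with GSK343 at 8 h among the early libraries, while Cyp1a1 and Cyp1b1 were highest at 4 h.

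Cyp1a1, an enzyme that oxidises aromatic compounds, was at 44.4 and 36.1 CPM in the untreated libraries at 4 h and at 9.41 and 1.27 CPM at 8 h. With GSK343 it was at 89.4 and 77.1 CPM at 4 h and 21.9 and 17.3 CPM at 8 h. At each time both treated libraries lay above both untreated ones, and in either group both 8 h libraries were below both 4 h ones. The log2 difference was 1.05 at 4 h, 2.0 at 8 h and 1.44 (SE 0.42) over both. Cyp1b1, a related enzyme with the same receptor, was at 5.28, 4.26, 1.30 and 0.067 CPM untreated and at 10.2, 8.93, 3.83 and 0 CPM with GSK343. The 0 is that of the shallow library. At 24 and 72 h Cyp1a1 differed by 0.56 and Cyp1b1 by 0.19. The list of xenobiotic and oxidative stress genes as a whole had 12 of 25 genes higher and a median of −0.00, with 3 genes at an unadjusted p under 0.05.

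Of the 33 gene lists examined, that of cholesterol synthesis and uptake had the largest share of tested members at an unadjusted p under 0.05. The sterol pathway joins acetyl-CoA units through mevalonate and squalene into cholesterol, and its genes are switched on together by SREBP2 when sterols in the endoplasmic reticulum run low. Of 37 listed genes 34 were tested, since Mvd and Msmo1 lie on the chromosome that the study left out and no row was matched for Hmgcs1. With GSK343, 25 were higher and 9 lower, and the median log2 difference was 0.27. An unadjusted p under 0.05 was found for 14, all higher, and 12 had every treated library above every untreated one, which is 35.3% of the list against 1.79% of all genes. None had an adjusted p below 0.658.

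The list was split into roles after its values were seen, so the counts and medians by role are a description. Most of the genes at an unadjusted p under 0.05 were enzymes of sterol synthesis. Of the 17 tested, 15 were higher, 11 had an unadjusted p under 0.05, 10 had groups that did not overlap, and the median log2 difference was 0.42. Cyp51 (lanosterol demethylase; NCBIM37, chromosome 5, 4081145 to 4104746) was at 205, 238, 196 and 127 CPM untreated and at 264, 337, 267 and 281 CPM with GSK343. The lowest treated library was above the highest untreated one, and the fitted log2 difference was 0.61 (SE 0.16). Lss, lanosterol synthase, was at 85.1, 106, 80.1 and 103 CPM untreated and at 127, 116, 141 and 139 CPM treated, a log2 difference of 0.49 (SE 0.13) with no overlap. Dhcr7, which makes the last step to cholesterol, was at 81.7, 96.0, 88.0 and 81.4 CPM untreated, which is 86.8 ± 6.85 (SD, n = 4). With GSK343 it was at 118, 109, 139 and 116 CPM, or 121 ± 12.7 (SD, n = 4), a log2 difference of 0.49 (SE 0.12). Fdps, which makes farnesyl diphosphate, was at 15.6, 18.6, 14.0 and 14.0 CPM untreated and 24.0, 23.6, 20.6 and 19.9 CPM treated, a log2 difference of 0.51 (SE 0.13). Its treated libraries were likewise all higher, and the 4 h pair was above the 8 h pair in both groups.

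For other enzymes of the same route, log2 differences were 0.72 for Pmvk (phosphomevalonate kinase), 0.46 for Fdft1 (squalene synthase), 0.37 for Sqle (squalene epoxidase), 0.47 for Tm7sf2 (a sterol reductase) and 0.54 for Ebp (a sterol isomerase), with treated and untreated libraries apart in all 5. Ebp was at 0.35 without untreated 8 h replicate 2. Idi1, which isomerises isopentenyl diphosphate, was among the 2 synthesis enzymes with negative values, at −0.09, and was at 0.09 without untreated 8 h replicate 2.

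Among the 8 genes of sterol sensing, uptake and transport, 6 were higher and the median was 0.16. Insig1, which holds SREBPs in the endoplasmic reticulum when sterols are plentiful and is itself an SREBP target, was at 127, 172, 131 and 131 CPM untreated and at 205, 190, 176 and 159 CPM with GSK343. Only untreated 4 h replicate 2 reached into the treated range, and the log2 difference was 0.39 (SE 0.12). The genes of the SREBPs themselves, Srebf2 and Srebf1, differed by 0.07 and 0.16, each with overlapping groups, and Srebf2 by 0.13 without untreated 8 h replicate 2. The 9 genes of fatty acid synthesis had a median of −0.07. Fads2, a desaturase, was the one with an unadjusted p under 0.05, at 143, 160, 136 and 142 CPM untreated and 175, 171, 198 and 217 CPM treated. Fasn (fatty acid synthase) differed by −0.16 and Acaca (acetyl-CoA carboxylase) by −0.35, and these were 0.07 and −0.18 without untreated 8 h replicate 2.

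**Figure D2:**
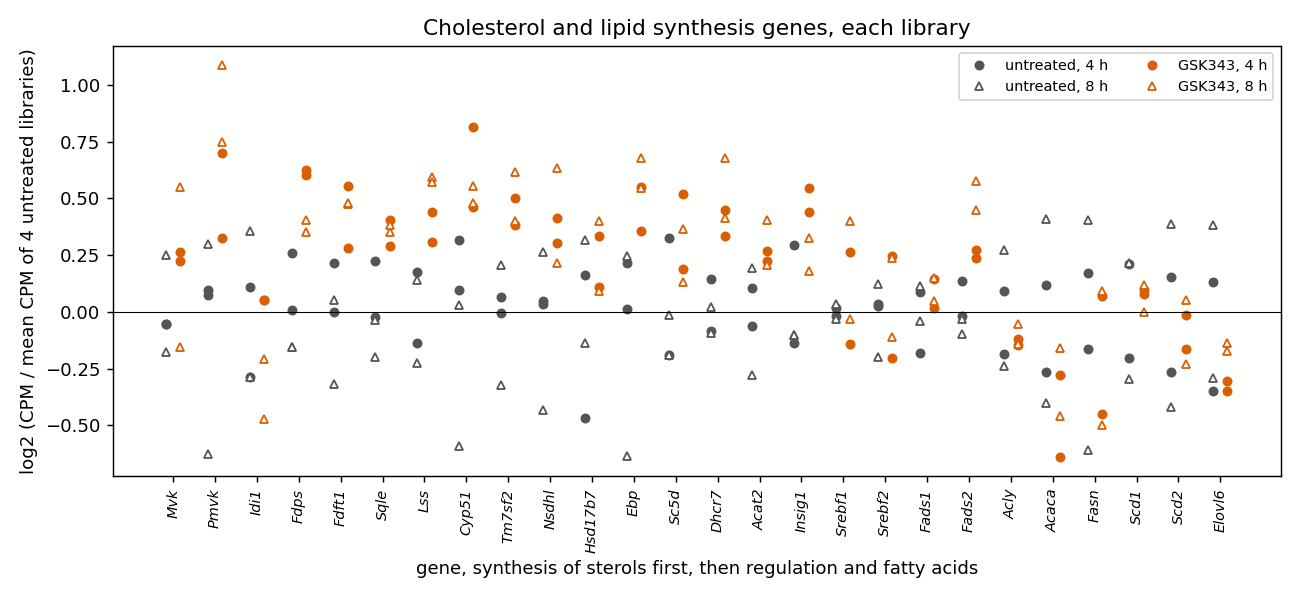
Log2 of each library's CPM over the mean CPM of the 4 untreated libraries, for 26 genes of sterol and fatty acid synthesis and their regulation. Grey marks are untreated and orange ones GSK343-treated libraries, filled circles 4 h and open triangles 8 h. From Pmvk to Dhcr7 nearly all orange marks lie above 0, while from Acly to Elovl6 the groups overlap.

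The list kept its side of 0 without the libraries that stood apart. Without untreated 8 h replicate 2, 31 of the 34 genes were higher, 15 had an unadjusted p under 0.05 and the median was 0.28. Without the shallow treated library the median was 0.27 with 14 genes at that level, and without both it was 0.30 with 14. Offsets for gene length gave 29 higher, 16 at that level and a median of 0.25. The libraries at 24 and 72 h are not among the early ones, but their fit took in all 16 and so shares its spread with them. At those times 28 of 34 were higher, 6 had an unadjusted p under 0.05 and the median was 0.19. The median of all genes was −0.02, and 134 (1.09%) of them were higher at that level. Of the synthesis enzymes 16 of 17 were higher there, with a median of 0.18. Late log2 differences were 0.37 for Dhcr7 (unadjusted p 0.00875 in edgeR), 0.29 for Insig1 and 0.31 for Fads2, and no gene was called at those times.

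SREBPs act at promoters together with NF-Y, which binds the letters CCAAT. The promoters shown are of the listed genes of lowest unadjusted p that had 1 RefSeq window and every treated library above every untreated one. They were thus picked by these same data. Each is RefSeq's 250 bases before and 50 after the start on build GRCm38.p6, with CCAAT or its reverse complement ATTGG in capitals. The promoters of Cyp51 and Lss hold that motif and the promoter of Fads2 does not. They lie at chr5:4104648-4104947 on the minus strand for Cyp51, chr10:76531355-76531654 on the plus strand for Lss and chr19:10101454-10101753 on the minus strand for Fads2. The motif starts at −29 in Cyp51 and −62 in Lss, counted from the start site.
Cyp51: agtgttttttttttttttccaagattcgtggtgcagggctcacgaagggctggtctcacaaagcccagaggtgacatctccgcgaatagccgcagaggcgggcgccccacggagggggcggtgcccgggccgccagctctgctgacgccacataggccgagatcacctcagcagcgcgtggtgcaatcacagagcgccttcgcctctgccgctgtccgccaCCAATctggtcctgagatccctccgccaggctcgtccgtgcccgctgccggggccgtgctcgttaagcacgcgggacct
Lss: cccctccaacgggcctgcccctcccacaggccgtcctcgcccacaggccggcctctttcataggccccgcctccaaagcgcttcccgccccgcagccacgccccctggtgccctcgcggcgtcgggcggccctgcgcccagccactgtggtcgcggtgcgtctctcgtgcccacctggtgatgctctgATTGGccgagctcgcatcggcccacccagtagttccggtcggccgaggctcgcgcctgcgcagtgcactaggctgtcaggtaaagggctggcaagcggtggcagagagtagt
Fads2: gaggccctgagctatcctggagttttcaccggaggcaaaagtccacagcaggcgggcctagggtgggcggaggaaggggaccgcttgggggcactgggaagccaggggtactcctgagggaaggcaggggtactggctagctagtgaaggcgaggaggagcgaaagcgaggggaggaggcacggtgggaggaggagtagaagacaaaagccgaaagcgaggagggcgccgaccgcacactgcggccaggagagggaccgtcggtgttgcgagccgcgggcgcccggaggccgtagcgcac
RefSeq windows were found for 25 of the 37 listed genes, 30 windows in all. CCAAT or ATTGG was in 21 of them (70.0%), against 37.4% of 32851 promoter windows. GGGCGG or its reverse complement, the GC box that Sp1 binds, was in 23 (76.7%) against 35.7%, and CACGTG, an E-box, in 5 (16.7%) against 7.15%. The windows were not matched on base composition, and the matches are letters, not measured binding.

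Of the 13 PRC2 subunit genes 4 had an unadjusted p under 0.05, all lower with GSK343, against 4.75% of all genes, and none passed the test. Suz12 was among them, while the groups overlapped for the catalytic subunit genes and Eed. Ezh2 was at 325, 269.6, 316 and 223 CPM untreated and at 316, 316, 306 and 275 CPM with GSK343, with overlapping groups and a log2 difference of 0.11 (SE 0.13) that was 0.02 without untreated 8 h replicate 2. Ezh1 was at 30.3 to 41.6 CPM untreated and 29.4 to 34.6 CPM treated, a difference of −0.07 (SE 0.14) that was 0.03 without the same library. Eed was at 304 to 398 CPM and 302 to 376 CPM, a difference of −0.07 (SE 0.11), or −0.14 without it. Suz12 was at 358, 413, 319.6 and 507 CPM untreated and at 315, 292, 309 and 279.7 CPM treated, so that all treated libraries were lower and the difference was −0.41 (SE 0.15). Jarid2 was at 231, 269, 205 and 332 CPM untreated and at 209.7, 174, 215 and 180.4 CPM treated, a difference of −0.40 (SE 0.16) with overlap through untreated 8 h replicate 1. In both genes the highest of the 8 libraries was untreated 8 h replicate 2, without which the differences were −0.25 for Suz12 and −0.24 for Jarid2, and with gene length offsets they were −0.32 and −0.16. Of the 13 genes 9 were lower and 4 higher, with a median of −0.07, and 2 (15.4%) had every treated library below every untreated one, against 3.45% of all genes. The other 2 at an unadjusted p under 0.05 were Mtf2 at −0.24 and the accessory subunit gene Lcor at −0.72, which was −0.45 without untreated 8 h replicate 2. Without the shallow treated library 1 gene was at that level, and without untreated 8 h replicate 2, 3 were. At 24 and 72 h 11 of 13 were lower, with a median of −0.12, and 1 had an unadjusted p under 0.05.

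The 23 genes of PRC1, which reads H3K27me3 and ubiquitinates histone H2A, had a median of −0.01, with 2 higher and 2 lower at an unadjusted p under 0.05. Kdm2b, whose product binds CpG islands, differed by −0.51, and by −0.31 without untreated 8 h replicate 2. Enzymes that remove H3K27 methylation or add and remove acetylation had a median of −0.12 over 17 genes, with Kdm6a at −0.41 and its Y-linked relative Uty at −0.38, which were both −0.25 without that library. The H3.3 gene H3f3a was at 166, 105, 173 and 101 CPM untreated and 133, 108, 122 and 111 CPM treated, a difference of −0.18 (SE 0.19). H3f3b was at 666, 616, 693 and 479.7 CPM untreated and 622, 786, 629 and 743 CPM treated, a difference of 0.19 (SE 0.14). Replicate 1 libraries were the higher for H3f3a in every pair, and the groups overlapped for both genes. Their differences were −0.31 and 0.08 without untreated 8 h replicate 2. Counts of these genes could include the transgene, since the sources used here do not say how its reads were handled. Over 13 genes of H3.3 and its chaperones the median was −0.05, with the chaperone genes Atrx at −0.68 and Supt16 (row Supt16h) at −0.45, or −0.39 and −0.26 without untreated 8 h replicate 2.

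**Figure D3:**
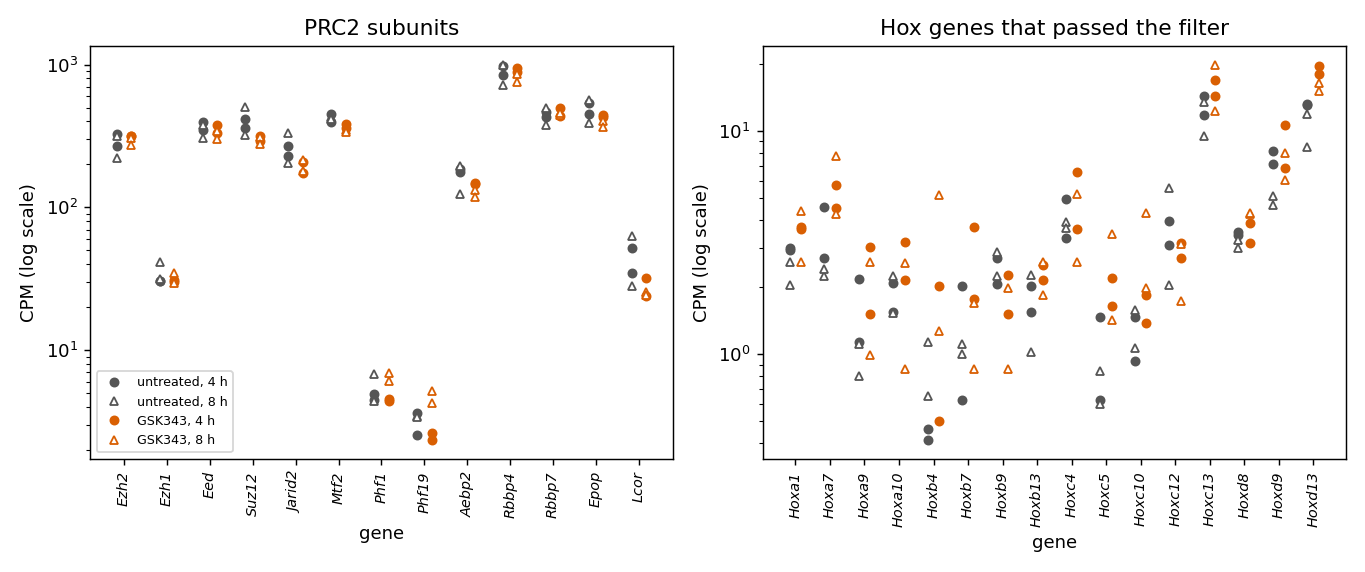
CPM of the 13 PRC2 subunit genes (left) and of the 16 Hox genes that passed the filter on low counts (right) in each of the 8 libraries, on log axes. Ezh2, Ezh1 and Eed overlap between untreated (grey) and GSK343 (orange) libraries, and most Hox genes lie below 10 CPM in either group.

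Hox genes, classical PRC2 targets that set position along the body axis, were at low levels throughout. Of 39 listed only 16 passed the filter on low counts, 22 did not and 1 had no matched row. Of the 16, 14 were higher and 2 lower, with a median of 0.41, and 4 had an unadjusted p under 0.05, all higher. A gene that passed the filter only through the group where it is high had to differ, so these counts are a description. Hoxd13 (NCBIM37, chromosome 2, 74506367 to 74509656) was the one with groups that did not overlap, at 13.1, 13.2, 11.9 and 8.48 CPM untreated and 18.03, 19.5, 15.2 and 16.4 CPM with GSK343. Its log2 difference was 0.57 (SE 0.15). In the libraries at 24 and 72 h it was at 11.7, 11.6, 9.13 and 9.05 CPM untreated and 16.8, 18.8, 10.7 and 13.2 CPM treated, a difference of 0.50 with an unadjusted p of 0.00287 in edgeR. At each of the 4 times both treated libraries were above both untreated ones. Hoxa7 was at 2.23 to 4.57 CPM untreated and 4.26 to 7.77 CPM treated, a difference of 0.77. Hoxc5 differed by 1.04 and Hoxb4 by 1.38, at levels of at most 1.47 CPM untreated. Of the 15 Hox genes tested at 24 and 72 h, 14 were higher, with a median of 0.28 and 2 at an unadjusted p under 0.05. Without untreated 8 h replicate 2 the early median was 0.42, and with gene length offsets 0.39.

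The wider set of developmental transcription factors that Polycomb covers in ESCs gave 50 tested genes of 123, of which 67 had too few counts. Of the 50, 35 were higher and 15 lower, where 53.2% of all genes were higher. The median was 0.19 early and 0.07 at 24 and 72 h, and 5 early genes had an unadjusted p under 0.05, all higher. As with the Hox genes, a gene that passed the filter only through the group where it is high had to differ. These counts are therefore a description. Twist1, a mesenchymal transcription factor, was at 4.66, 5.35, 4.38 and 3.67 CPM untreated and 6.93, 6.06, 7.52 and 7.77 CPM treated, with no overlap and a difference of 0.63 (SE 0.20). Tlx3, which specifies neurons, differed by 0.84, at 2.40 to 5.12 CPM untreated and 4.55 to 6.91 CPM treated. Its groups overlapped through untreated 8 h replicate 1. All 16 germline genes that passed the filter, of 25 listed, were higher, with a median of 0.24, a count with the same limit from the filter. But 2, Slc25a31 at 1.26 and Syce1 at 0.57, had an unadjusted p under 0.05. The median was 0.13 without untreated 8 h replicate 2, with 0 at that level and Syce1 at 0.37. The Cdkn2a and Cdkn2b genes, cell cycle inhibitors that PRC2 represses in many cell types, differed by 0.29 and 0.58, and Cdkn2a by 0.10 without that library. The 24 trophoblast genes gave 14 tested, with a median of 0.02, and Esx1 and Krt18 had every treated library higher, at 0.75 and 0.48, with Krt18 at 0.29 without it. In extraembryonic endoderm 13 of 28 were tested, with a median of −0.21, Sox17 at 1.03 and Lamc1 at −0.63, which was −0.30 without untreated 8 h replicate 2. Sox17 was at low levels, 0.47 to 1.21 CPM untreated and 0.67 to 3.45 CPM treated. Its groups overlapped, and its highest level was in the shallow library.

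The 2-cell-like state is a rare and passing state of ESCs that resembles the early embryo. None of its genes passed the test. Of 14 tested of 21 listed, 13 had a log2 difference below 0 and 1 above, 3 had an unadjusted p under 0.05 and groups that did not overlap, and the median was −0.27. Zscan4d, a marker of the state, was at 11.8, 8.60, 10.2 and 8.08 CPM untreated and at 7.82, 7.07, 5.68 and 3.45 CPM with GSK343. The treated libraries were all lower, by 0.60 (SE 0.20) on the log2 scale. Usp17le (row Dub3) was at 6.21, 5.89, 5.68 and 6.81 CPM untreated and 4.66, 3.54, 4.12 and 3.45 CPM treated, a difference of −0.59 (SE 0.20), and Arg2 differed by −0.84. The Zscan4 and Usp17 genes are families of near-identical copies, so the reads of single members are uncertain. In the late libraries all 13 tested members were lower, 7 with an unadjusted p under 0.05 (1.11% of all genes were lower at that level), and the median was −0.71. Late differences were −0.68 for Zscan4d, −0.64 for Usp17le and −0.79 for Arg2. Without untreated 8 h replicate 2 the early median was −0.28 and 3 genes were at that level. No member was called at 24 and 72 h.

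Pluripotency genes had medians near that of all genes. Over 21 naive genes the median was −0.03, with the nuclear receptor gene Nr5a2 at −0.38, and over 19 general and primed genes 0.00, with Etv5 at −0.29 and Sall4 at −0.33, which was −0.20 without untreated 8 h replicate 2. Pou5f1 was at 583 to 895 CPM untreated and 654 to 956 CPM treated. Tfcp2l1 (row Tcfcp2l1), a naive factor, was at 687, 1171, 598 and 1746 CPM untreated and at 579, 418, 578 and 499.9 CPM treated, a difference of −0.998 (SE 0.30). All treated libraries were lower, and among the untreated ones replicate 2 was the higher at both times. The imprinted gene Snrpn showed the same replicates high, at 6.11, 19.8, 6.52 and 47.1 CPM untreated and 4.79, 2.02, 4.83 and 6.91 CPM treated, a difference of −2.10 (SE 0.64). Without untreated 8 h replicate 2 the differences were −0.60 for Tfcp2l1 and −1.33 for Snrpn. Late values were nearer 0, and Tfcp2l1 differed by −0.20 and Snrpn by −0.67. Over 31 imprinted genes the median was 0.00, and Nnat, higher in every treated library, differed by 0.68, or 0.44 without untreated 8 h replicate 2.

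Several stress lists were inspected beside these. Genes of the integrated stress and unfolded protein responses had a median of 0.08 over 42 genes, with 4 higher at an unadjusted p under 0.05, against −0.07 at 24 and 72 h with 6 lower. Trib3, a target of ATF4 and CHOP, was at 18.7, 15.9, 20.02 and 13.2 CPM untreated and 24.8, 21.7, 21.2 and 25.9 CPM with GSK343 early. At 24 and 72 h it was at 34.3, 23.0, 15.9 and 23.9 CPM untreated and 21.0, 22.3, 11.1 and 10.2 CPM treated. At each early time both treated libraries were the higher and at each late time both were the lower, and the late minus the early log2 difference was −1.10, with an unadjusted p of 0.00107 and an adjusted p of 0.964 in edgeR. The stress gene Nupr1 differed by 0.70 early. Chac1 gave −1.15 and Ddit3 (CHOP) −0.80 in the same test, in which 199 of 12278 genes (1.62%) had an unadjusted p under 0.05 and 0 were called. The 23 p53 targets had 18 lower, a median of −0.18 and 5 at an unadjusted p under 0.05, of which 1 was left without untreated 8 h replicate 2. Trp53inp1 differed by −0.51, Polk by −0.45 and Mdm2 by −0.29, and without that library Trp53inp1 by −0.29 and Mdm2 by −0.19. Hypoxia and glycolysis genes had a median of −0.01 over 39 genes, with the demethylase gene Kdm3a at −0.34 and Higd1a at 0.44, and autophagy and lysosome genes one of 0.00 over 43, with Atg14 at −0.33 and Mitf at −0.30.

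**Figure D4:**
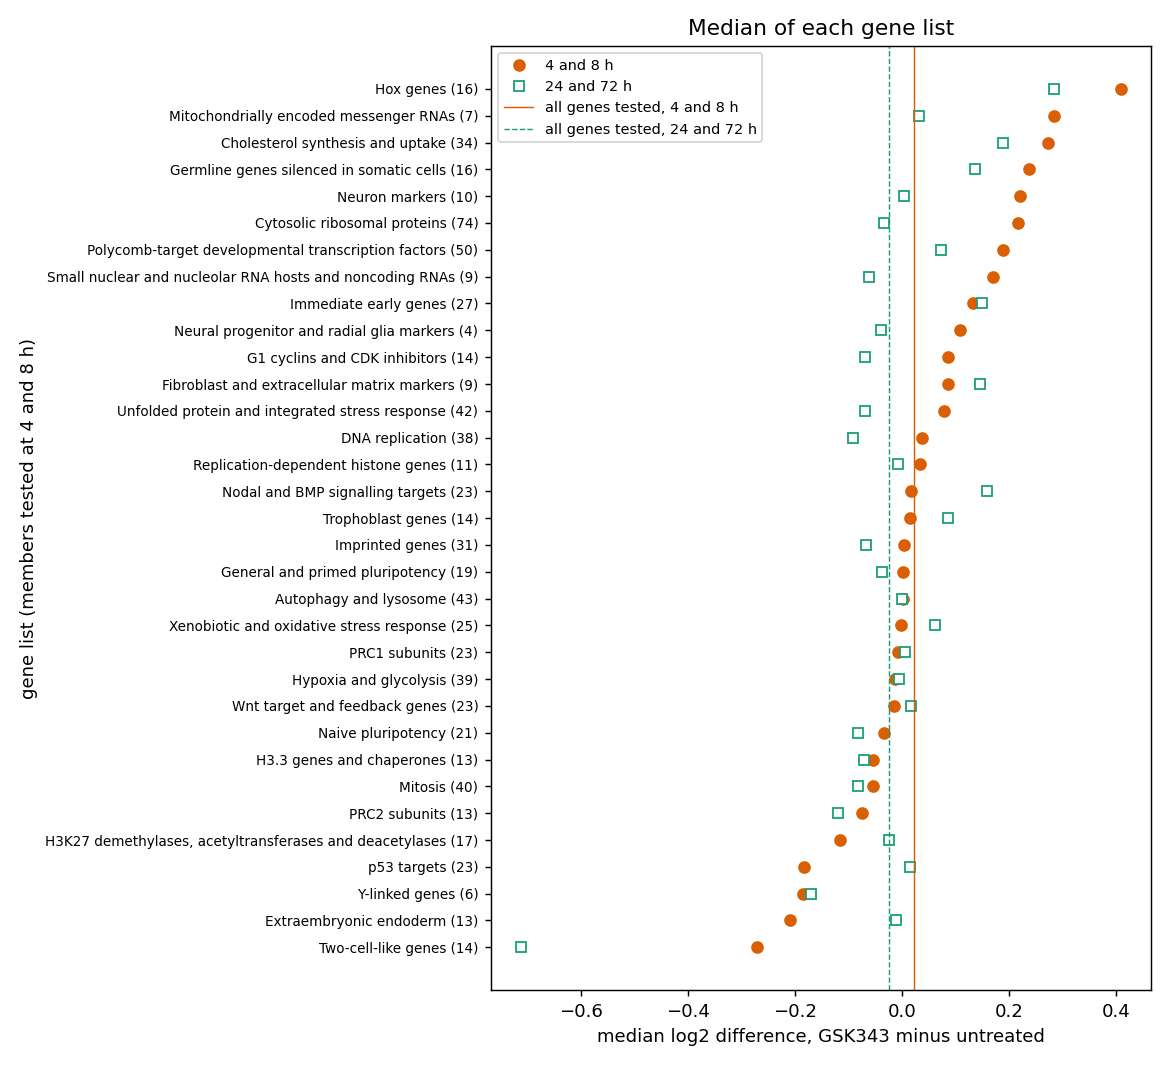
Median log2 difference, GSK343 minus untreated, of 33 gene lists at 4 and 8 h (orange circles) and at 24 and 72 h (green squares), with the number of genes tested early in brackets. Vertical lines are the medians of all genes, 0.02 and −0.02. Hox genes lie highest early at 0.41 and 2-cell-like genes lowest at −0.27.

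Medians of the growth and signalling lists lay near that of all genes. DNA replication genes had a median of 0.04 over 38 genes, with Fen1 at −0.47 and Mcm10 at −0.21, and G1 cyclins and CDK inhibitors one of 0.09 over 14. Replication-dependent histone genes had a median of 0.03 over 11, with Hist1h1a at 0.34 (SE 0.48; −0.03 without untreated 8 h replicate 2) and Hist1h2bc at −0.21 (SE 0.19), and mitosis genes one of −0.05 over 40, with Anln at −0.33 (−0.21 without that library). Ect2, which acts in cytokinesis, was at 254, 256, 264 and 291 CPM untreated and 232, 203, 193 and 178 CPM treated, all lower, by 0.39 on the log2 scale (SE 0.11). Wnt targets had a median of −0.01 over 23 genes, with Nkd2 at 0.998 and Fzd7 at −0.41 (−0.19 without untreated 8 h replicate 2). Nodal and BMP targets had one of 0.02 over 23, with Smad7 and Skil, feedback inhibitors of TGF-beta signalling, at −0.64 and −0.44 (−0.39 and −0.27 without it). The 6 tested Y-linked genes had a median of −0.18, with Ddx3y at −0.74, and snoRNA hosts and other noncoding RNAs one of 0.17 over 9, with Gas5 at 0.34 and Snhg12 at 0.26. Neuron markers had a median of 0.22 over 10 genes, with Nefm at 0.37 and Nefl at 0.47 (0.23 without untreated 8 h replicate 2), neural progenitor markers one of 0.11 over 4, with Pax6 at 0.60 and Slc1a3 at 0.15, and fibroblast markers one of 0.09 over 9, with Thy1 at 0.69. Their part in the results above was not tested.

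The cytosolic ribosomal protein genes moved with the library that stood apart. Of 74 genes, 73 were higher, with a median of 0.22, and 2 higher (Rps29 at 0.54 among them) and 1 lower (Rpl24 at −0.37) had an unadjusted p under 0.05. The median was 0.07 without untreated 8 h replicate 2, 0.09 with gene length offsets and −0.03 at 24 and 72 h. The 7 mitochondrially encoded messenger RNAs had a median of 0.28, with mt-Nd6 at 0.34 and mt-Nd2 at 0.28, and the median was 0.01 with the offsets. Library by library, the median log2 deviation of the ribosomal genes from the mean of the 8 libraries was −0.65 in untreated 8 h replicate 2 and between −0.07 and 0.30 in the rest. That of the cholesterol genes was −0.21, 0.05, −0.23 and −0.11 in the untreated libraries and 0.13, 0.08, 0.21 and 0.04 in the treated ones.

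**Figure D5:**
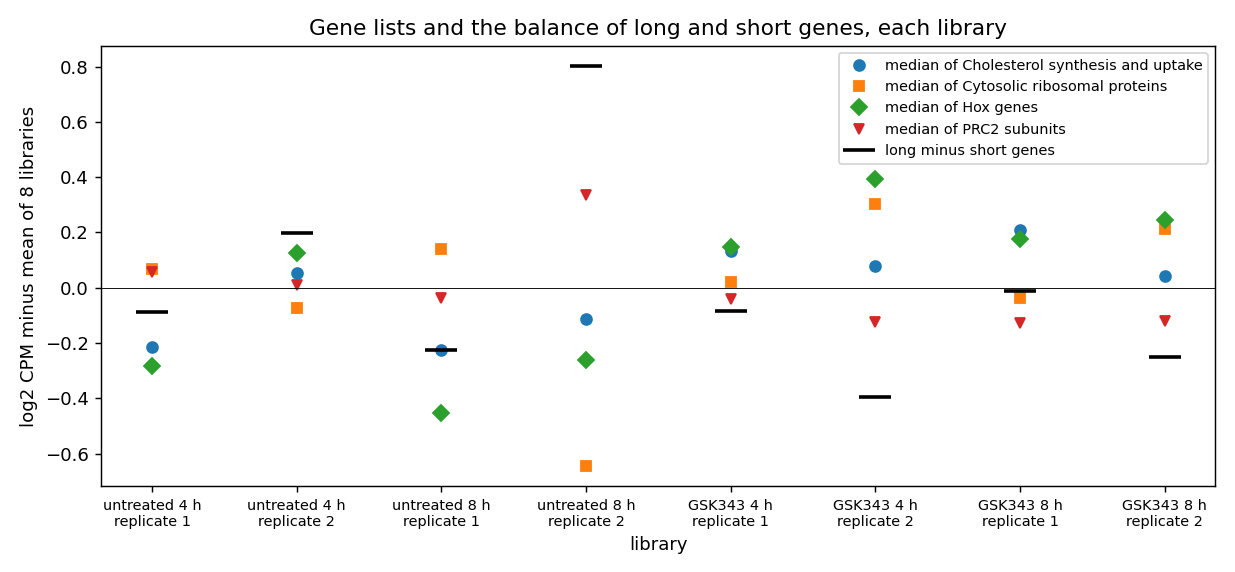
Median log2 deviation of 4 gene lists from the mean of the 8 libraries, and the log2 ratio of long to short genes (black bars), in each library. In untreated 8 h replicate 2 the bar is at 0.80 and the ribosomal protein genes are at −0.65. The cholesterol genes are between 0.04 and 0.21 in the treated libraries and between −0.23 and 0.05 in the untreated ones. These ranges overlap through untreated 4 h replicate 2 and GSK343 8 h replicate 2.

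Taken singly, the 2 times had fewer genes at a low p than the 8 libraries together. At 4 h 21 genes (0.168%) and at 8 h 397 genes (3.17%) had an unadjusted p under 0.05, and 0 were called at either time by edgeR or DESeq2. The median standard error was 0.27 at 4 h and 0.28 at 8 h. Leaving out untreated 8 h replicate 1 gave 565 calls at 8 h (273 positive and 292 negative) against the remaining untreated library at that time, the one that stood apart. The cholesterol list had a median of 0.20 at 4 h and 0.29 at 8 h, with 28 and 25 of 34 genes higher, where 52% and 52.9% of all genes were, and 1 and 11 at an unadjusted p under 0.05. The Hox median was 0.37 at 4 h and 0.52 at 8 h, and that of the 2-cell-like genes −0.41 and −0.11. At 24 and 72 h together 270 of 12278 genes (2.2%) had an unadjusted p under 0.05 and edgeR and DESeq2 called 0.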

How the data were processed

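RNA was measured in 4 GSK343-treated and 4 untreated WT-H3.3 ESC libraries at 4 and 8 h, with the 8 libraries at 24 and 72 h beside them. Per the labels and the study's methods, reads were aligned to mm9 with STAR 2.7.1, and the authors deposited raw counts per gene, without a statement of strand or of the kit of each library. Of 55471 gene IDs, 32589 matched the NCBIM37 annotation and held 98.1% of the counts. Genes of chromosome 8 (1435 genes, 5.62% of the counts) were left out, as the study did, because of a possible duplication in its clones. Libraries were tested with edgeR 4.0.16 (limma 3.58.1, R 4.3.3): TMM, filterByExpr, a quasi-likelihood test with Dox time as a factor and Benjamini-Hochberg adjustment, called at adjusted p under 0.05 and a fold change over 2 or under 0.5. The comparison at 24 and 72 h was fitted on all 16 libraries, so its filter, normalization and spread also used the early ones. DESeq2 1.42.0 was an alternative. CPM used TMM library sizes over the 16 libraries. The test was checked on simulated data. P-values measure the spread between replicate libraries prepared weeks apart. With 4 and 8 h together, that spread also holds any difference of the effect between the times. The 4 libraries of a treatment are then 2 replicates at each time, counted as 4. No replicate pair differed by less than sampling noise.

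The named genes are Ezh2, Ezh1, Eed, Suz12, Jarid2, H3f3a and H3f3b, and up to 2 members of lowest p in each of 33 lists, or up to 4 past the threshold. Places for called genes stayed empty. Other genes were added after their values were seen, to show the lists' roles: the further sterol and fatty acid genes, Egr1, Fosl2, Dusp1, Mdm2, Trib3, Chac1, Mtf2, Hoxc5, Hoxb4, Zscan4d and Pou5f1. Some items are not reported here. The libraries, members and lists were chosen with earlier results of these data known. No gene list was tested as a set. Alternatives were the tool, normalization, filter, model, depth, gene length, chromosome 8, replicate number, fold limit and leaving out each library. Promoter windows came from RefSeq (GRCm38.p6) and were matched by symbol with Python 3.11.15.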

Additional observations from a re-analysis of the deposited data

Results flagged for a closer look

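Untreated 8 h replicate 2 had a mean Spearman correlation of 0.967 with the other 7 early libraries, against 0.985 to 0.987 in the other 3 untreated ones. The gap to the nearest was 0.930 of the range of the 4, above the 95% critical value of Dixon's test. Of 10 groups and measures examined in this way (depth, genes with counts, likeness, mitochondrial share and length balance of the libraries, in each treatment), 1 stood out, and about 1 in 20 groups does so by chance. A named gene's log2 difference over both times that moved by more than 1.5 times without this library is given with both values. No other result was singled out, and its cause was not tested.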

How the results depend on the processing

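Under 14 other settings (13 for results with the late libraries) and with each library left out, counts of calls were 0 except as follows. With no filter on low counts they were 65 (372 at any fold, 16 higher and 356 lower, 357 of them among the genes tested with the filter) at 4 and 8 h together, 6 at 4 h, 47 at 8 h, 2 at 24 and 72 h, 5 for late against early, and 26 list members. The cause was not tested. Leaving out each library gave 0 to 2 calls at 4 and 8 h together and 0 to 2 list members (2 each without untreated 8 h replicate 2), 0 at 4 h, 0 to 565 at 8 h, 0 to 2 for 8 h against 4 h and 0 to 1 for late against early (the highest each without untreated 8 h replicate 1), and 0 at 24 and 72 h. At an unadjusted p under 0.05 the count at 4 and 8 h together was 307 to 2260 over the settings, lowest without both replicate 2 libraries of 8 h, a setting chosen after seeing the data, and 313 to 3135 with 1 library left out. Dropping the filter moved the median of all genes from 0.02 to −0.08, and the other settings by less than 0.1.

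Libraries with the same replicate number were not alike to the same degree at every time. Deviations of same-numbered untreated and treated libraries had a Pearson r over 12278 genes of 0.21 for 4 h, −0.13 for 8 h, −0.20 for 24 h and 0.60 for 72 h. The 8 h value includes untreated 8 h replicate 2 and the shallow treated library, so it cannot show that pairing was absent. With the replicate block 0 genes were called at every time and 858 had an unadjusted p under 0.05 at 4 and 8 h together, and with gene length offsets as well 954 did, with 0 called. With the 8 h numbers crossed, chosen after seeing the data, 0 were called and 1057 were at that level. At 24 and 72 h the block gave 390 and the crossed block 371 at that level, with 0 called.

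Among named genes these values changed sign. Fasn was 0.095 with gene length offsets, 0.0859 with the block as well, 0.1191 without both replicate 2 libraries of 8 h, and −0.3202 to 0.0696 with 1 library left out. Ezh1 was 0.1087, 0.1029, 0.0499 and −0.1186 to 0.0276 in the same order. Pou5f1 was −0.0602 with no filter, −0.0413 with gene length offsets, −0.0465 with the block as well, −0.1129 without both libraries, and −0.0778 to 0.1818 with 1 left out. Idi1 was 0.1133 without both libraries and −0.2225 to 0.087 with 1 left out, and Hist1h1a −0.0394 and −0.0303 to 0.9033. Srebf2 was −0.0211 with no filter and −0.004 to 0.1701 with 1 left out. Leaving out 1 library gave −0.1367 to 0.0027 for Eed, −0.3076 to 0.0056 for H3f3a and −0.1025 to 0.2583 for Slc1a3. In all, 13 named genes moved by more than 1.5 times without 1 library other than untreated 8 h replicate 2, and not without that one: Cdkn2b, Cyp1b1, Etv5, Fen1, Hist1h2bc, Nefm, Pax6, Rps29, Slc1a3, Slc25a31, Srebf1, mt-Nd2 and mt-Nd6.

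Depth limits the genes of a few CPM most, since 1 count in the shallow library of 1247934 counts weighs more than in the others.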
